A study of Homo sapiens with 9 samples.

Results

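The genes read here encode the proteins of the cytoplasmic ribosome. Members were the rows of the deposited gene table whose symbol is RPL or RPS with a number and an optional A, X or L, together with RPLP0, RPLP1, RPLP2 and RPSA. The rule found 81 members among 62666 rows. Of these, 77 are core genes, 46 for the large (60S) and 31 for the small (40S) subunit, and 4 are paralogs whose symbols end in L, namely RPL3L, RPL10L, RPL39L and RPS27L. All 77 core genes and 2 of the 4 paralogs passed the filter on low counts, within 17910 genes tested. RPL3L and RPL10L, known from muscle and testis, had 0 to 2 counts in every library and were not tested.

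Polyadenylated RNA was sequenced from 3 human mammary epithelial lines of 1 lineage with 3 libraries each, 9 in all, to follow expression along breast cancer progression. MCF10A is an immortalised, non-tumorigenic line, MCF10AT1 is its derivative carrying activated HRAS and counts as premalignant, and MCF10Ca1a is a tumour-forming derivative. Each stage is thus modelled by a single line. No treatment was applied, but MCF10AT1 was kept in 2.5% horse serum and MCF10A and MCF10Ca1a in 5%, so serum and line cannot be told apart in the comparisons with MCF10AT1. The labels do not say whether replicates are separate cultures, so p-values measure the spread between libraries, which may be technical. Comparisons of 2 of the lines share libraries with the others, and their values are given side by side.

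Each ribosome is built from nearly all of these proteins, and free ribosomal proteins are degraded or bind other partners, such as MDM2 in the case of RPL5 and RPL11. Their mRNAs are among the most abundant of the cell. Most begin with a terminal oligopyrimidine (TOP) tract, a C followed by a run of C and T at the very 5′ end, through which mTOR and LARP1 set their translation together. A few have paralogs that can take their place in the particle.

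The deposited estimated counts summed to between 32.9 M and 69.5 M for a library. MCF10Ca1a was sequenced less deeply, at 34.5 ± 1.32 M, than MCF10A at 66 ± 3.05 M and MCF10AT1 at 66.3 ± 2.92 M (SD, n = 3 each). A core member had between 5381 and 260564 counts in a library. HRAS stood at 39.1 to 43 CPM (counts relative to the library total scaled by TMM) in MCF10A, 94.3 to 99.6 in MCF10AT1 and 141 to 149 in MCF10Ca1a, with no overlap between lines. All 6 epithelial markers read were present, with a summed level of 1770 to 3040 TPM (a level per transcript length and library total). Within it the basal keratins were lower in MCF10Ca1a than in MCF10A, KRT14 at 4.7 to 4.94 beside 176 to 241 TPM and KRT5 at 411 to 426 beside 1210 to 1700 TPM, and EPCAM was higher at 383 to 395 beside 36.8 to 42.4 TPM. The 5 fibroblast markers summed to 1.92 to 31.5 TPM, the 4 leukocyte markers to 2.65 to 33 TPM with the T-cell marker CD3E at 0 in all libraries, and the 4 endothelial markers to 0.674 to 20.8 TPM. Within these sums CD68 was highest in MCF10Ca1a (30.1 to 33 TPM), as was PECAM1 (15.6 to 20.8 TPM), and DCN in MCF10AT1 (26.6 to 30.4 TPM); their part in the results was not tested. In bulk RNA, fewer cells of a kind and less RNA per cell cannot be told apart.

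The coding sequences of both expressed paralogs and their parents are shown because reads are told apart in part by these bases. Capitals mark the bases at which a gene and its paralog differ, from the first base of the start codon through the stop codon in GENCODE 29 (GRCh38).
RPL39: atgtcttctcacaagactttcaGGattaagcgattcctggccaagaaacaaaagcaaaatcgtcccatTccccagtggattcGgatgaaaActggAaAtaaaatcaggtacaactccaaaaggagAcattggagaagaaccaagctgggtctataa
RPL39L: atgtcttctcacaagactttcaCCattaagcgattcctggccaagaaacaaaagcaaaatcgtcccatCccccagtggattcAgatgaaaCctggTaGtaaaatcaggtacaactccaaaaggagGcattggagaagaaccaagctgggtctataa
RPS27: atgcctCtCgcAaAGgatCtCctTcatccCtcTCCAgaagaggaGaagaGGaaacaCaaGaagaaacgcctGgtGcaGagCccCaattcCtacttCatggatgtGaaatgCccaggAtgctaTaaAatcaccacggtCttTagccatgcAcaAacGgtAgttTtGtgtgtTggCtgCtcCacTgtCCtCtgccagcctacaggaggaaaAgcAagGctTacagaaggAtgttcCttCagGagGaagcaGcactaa
RPS27L: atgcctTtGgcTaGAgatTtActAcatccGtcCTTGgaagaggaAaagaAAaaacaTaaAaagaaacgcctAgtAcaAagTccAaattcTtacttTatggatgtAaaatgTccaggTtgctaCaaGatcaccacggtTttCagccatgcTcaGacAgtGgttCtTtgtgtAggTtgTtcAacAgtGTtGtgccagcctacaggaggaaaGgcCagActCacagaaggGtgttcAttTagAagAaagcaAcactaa
RPL39 and RPL39L, whose protein lines the exit tunnel for the nascent chain, share 94.87% of 156 bases. They differ at 8 bases in 7 codons, and their longest identical run is 44 bases. RPS27 and RPS27L, for a zinc-finger protein of the small subunit, share 78.04% of 255 bases. Of their 56 differences 48 are at the third base of a codon, and no identical run is longer than 20 bases. Among the other pairs the identity was 89.3% for RPL10 and RPL10L, 75.16% for RPL3 and RPL3L, 90.03% for RPL36A and RPL36AL, 84.25% for RPL26 and RPL26L1, and 65.37% for RPL22 and RPL22L1.

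RPL39L and RPS27L changed in different ways, and RPL39L in both derived lines and RPS27L in MCF10Ca1a changed by more than any core gene. RPL39L (chr3:187120948-187180908, minus strand) stood at 1.31, 1.45 and 1.46 CPM in MCF10A and 26.6, 26.5 and 26.8 in MCF10AT1, compared with 17, 15.8 and 16.5 in MCF10Ca1a. All 6 libraries of the derived lines were above all 3 of MCF10A, and those of MCF10AT1 above those of MCF10Ca1a. RPL39L was 18.9-fold higher in MCF10AT1 than in MCF10A (log2 change 4.24, SE 0.0706, edgeR adjusted p 1.886e-14) and 11.6-fold higher in MCF10Ca1a than in MCF10A (log2 change 3.54, SE 0.07365, edgeR adjusted p 4.42e-14). It was 1.62-fold lower in MCF10Ca1a than in MCF10AT1 (edgeR adjusted p 4.533e-08). Its parent RPL39 remained the main form, and RPL39L made up 0.080 ± 0.0113% of the summed TPM of the pair in MCF10A, 1.42 ± 0.0913% in MCF10AT1 and 1.20 ± 0.0279% in MCF10Ca1a (SD, n = 3 each). Only 52.3% of the 31-base stretches of RPL39 were unique to it, and it shared most with RPL39L. For RPL39L itself the share was 77.43%, over its whole protein-coding transcripts.

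RPS27L (chr15:63125872-63158021, minus strand), a p53 target, had 45.8, 58.4 and 66.2 CPM in MCF10A and 87.2, 92 and 100 in MCF10AT1, as against 9.28, 9.48 and 8.94 in MCF10Ca1a. The 3 lines did not overlap, with MCF10AT1 highest and MCF10Ca1a lowest. It was 1.64-fold higher in MCF10AT1 than in MCF10A (log2 change 0.71, SE 0.1, edgeR adjusted p 3.196e-05). In MCF10Ca1a it was 6.15-fold lower than in MCF10A (log2 change -2.62, SE 0.12, edgeR adjusted p 9.526e-11) and 10.1-fold lower than in MCF10AT1 (log2 change -3.33, SE 0.121, edgeR adjusted p 1.272e-11). RPS27L made up 3.22 ± 0.123% of the summed TPM of the pair in MCF10A, 7.48 ± 0.155% in MCF10AT1 and 0.650 ± 0.0296% in MCF10Ca1a (SD, n = 3 each). Of its 31-base stretches, 88.2% were unique to it.

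**Figure D1:**
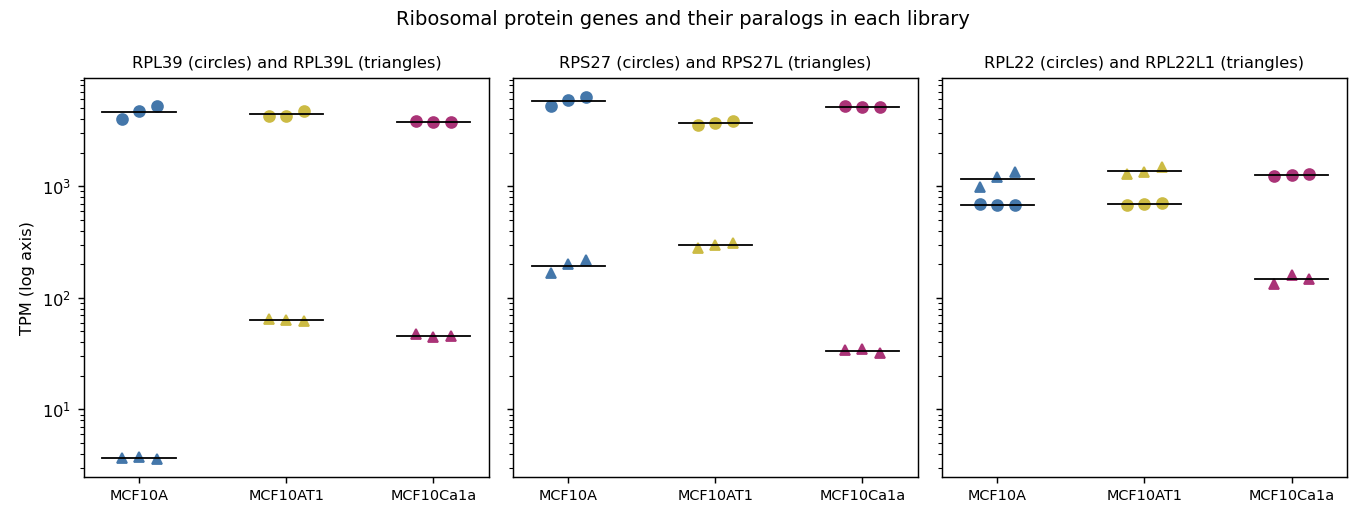
Level (TPM, log axis) of 3 ribosomal protein genes (circles) and their paralogs (triangles) in each of the 9 libraries, with black lines at the line means. RPL39L is lowest in MCF10A, RPS27L and RPL22L1 are lowest in MCF10Ca1a, and in RPL22 the order of gene and paralog turns between MCF10AT1 and MCF10Ca1a.

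RPL22L1 lies outside the name rule and was read in a list of 7 further ribosomal proteins and paralogs. Of the 5 pairs read, its share differed most between the lines in percentage points, though not in fold. RPL22 (chr1:6185020-6209389, minus strand), an RNA-binding protein of the large subunit, stood at 502, 499 and 514 CPM in MCF10A and 539, 552 and 548 in MCF10AT1, while MCF10Ca1a had 777, 791 and 813. RPL22L1 had 244, 323 and 381 CPM in MCF10A and 365, 392 and 427 in MCF10AT1, compared with 30.2, 36.5 and 32.8 in MCF10Ca1a. In MCF10Ca1a against MCF10A, RPL22 rose by 0.65 on the log2 scale (SE 0.0511, edgeR adjusted p 3.191e-08) while RPL22L1 was 9.53-fold lower (log2 change -3.25, SE 0.14, edgeR adjusted p 4.829e-11). The share of RPL22L1 in the summed TPM of the pair was 63.1 ± 3.88% in MCF10A, 66.2 ± 1.32% in MCF10AT1 and 10.4 ± 0.768% in MCF10Ca1a (SD, n = 3 each). In CPM, which are not divided by transcript length, RPL22 was above RPL22L1 in every library, so the larger share of RPL22L1 holds in TPM only. RPL26L1 held 3.09%, 3.00% and 1.71% of its pair with RPL26, and RPL36AL held 20.6%, 22.1% and 20.9% of its pair with RPL36A, in the order MCF10A, MCF10AT1 and MCF10Ca1a. Of the 7 genes of this list, 6 were lower in MCF10Ca1a than in MCF10A by edgeR (among them RPL22L1, RPL26L1, RPL7L1, RPL36AL and FAU), beside 41.9% of all genes, and the receptor for activated kinase RACK1 was not called in any comparison (log2 change 0.02 in MCF10Ca1a against MCF10A, adjusted p 0.7052).

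The core genes together made up a large part of the mRNA pool in the 3 lines. Their summed level was 193000, 211300 and 225200 TPM in MCF10A and 220900, 225300 and 232800 TPM in MCF10AT1, as against 228600, 228600 and 231400 TPM in MCF10Ca1a. MCF10A and MCF10AT1 overlapped, and MCF10Ca1a lay above all libraries of MCF10A and within the range of MCF10AT1. As a share of counts, which weighs long mRNAs more, the sums were 7.29%, 8.55% and 9.45% in MCF10A and 9.53%, 9.76% and 10.2% in MCF10AT1, while MCF10Ca1a had 8.73%, 8.72% and 8.96%. On this scale all libraries of MCF10AT1 lay above those of both other lines, which overlapped. The libraries of MCF10A lay far apart: all 77 core genes were below the mean of the line in replicate 1, with a median deviation of -0.20 on the log2 CPM scale, and 0 of 77 were below it in replicate 3, with a median deviation of 0.18. Over all genes tested the median deviations of these 2 libraries were 0.01 and -0.01. Averaged over the 9 libraries, RPS26 was the lowest core gene (864.6 TPM) and RPL4 the highest (4970 TPM), but RPL4 was the highest in no single library. RPL22 was lowest in all 6 libraries of MCF10A and MCF10AT1 (673.5 to 703.6 TPM) and RPS26 in those of MCF10Ca1a (641.4 to 668.9 TPM). The highest was RPS27 in MCF10A (5247 to 6367 TPM) and RPS6 in MCF10Ca1a (6324 to 6413 TPM), and 63 to 67 core genes were among the 100 most abundant genes of a library.

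**Figure D2:**
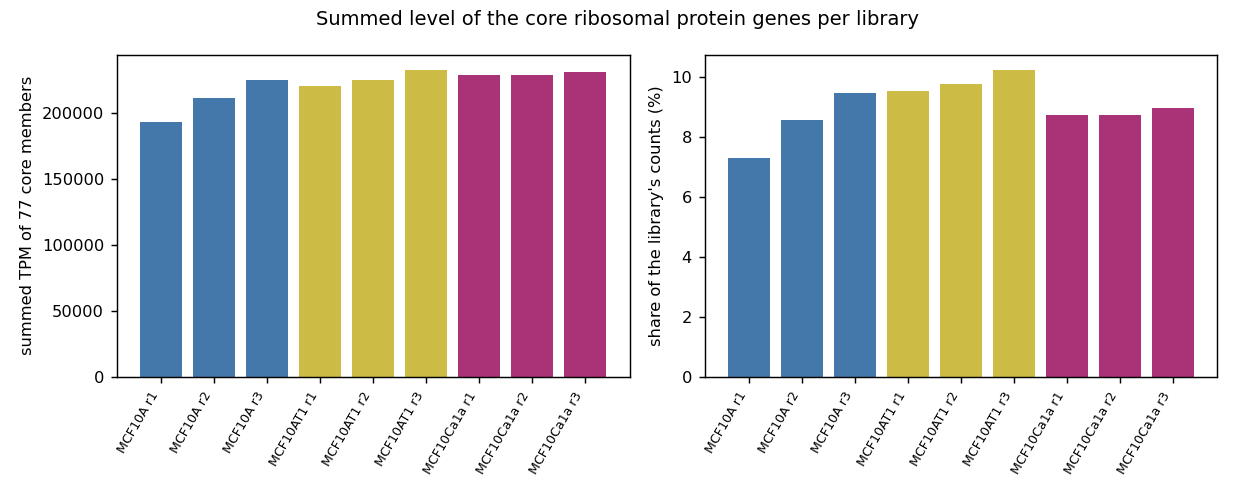
Summed level of the 77 core genes in each library, as TPM on the left and as a share of the library's counts on the right, with bars coloured by line (r1 to r3 are replicates). MCF10A replicate 1 is the lowest library on both scales, and MCF10AT1 has the highest shares of counts.

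Between the lines the single genes differed by little but in both directions. A gene counted as called where the quasi-likelihood test of edgeR, adjusted over all 17910 genes, gave a value under 0.05. In MCF10AT1 against MCF10A, 37 of 77 core genes were higher, 3 lower and 37 not called, so that 51.9% were called, beside 61.6% of all genes tested (29.8% higher, 31.8% lower). In MCF10Ca1a against MCF10A, 23 were higher and 29 lower, 67.5% in all, beside 80.9% of all genes (39% higher, 41.9% lower). In MCF10Ca1a against MCF10AT1, 11 were higher and 49 lower, 77.9% in all, beside 78.4% of all genes (38% higher, 40.3% lower). The libraries of the 2 lines did not overlap for 38, 46 and 69 core genes in the 3 comparisons, in this order, beside 65.4%, 81.5% and 81.9% of all genes. The median log2 change was 0.22, -0.13 and -0.32 in the core genes and -0.00, -0.05 and -0.04 in all genes. The sizes were small: the median absolute log2 change was 0.22, 0.32 and 0.39, against 0.38, 0.84 and 0.76 in all genes, and only RPL10, RPL13 and RPL28 passed a log2 change of 1 in MCF10Ca1a against MCF10A.

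**Figure D3:**
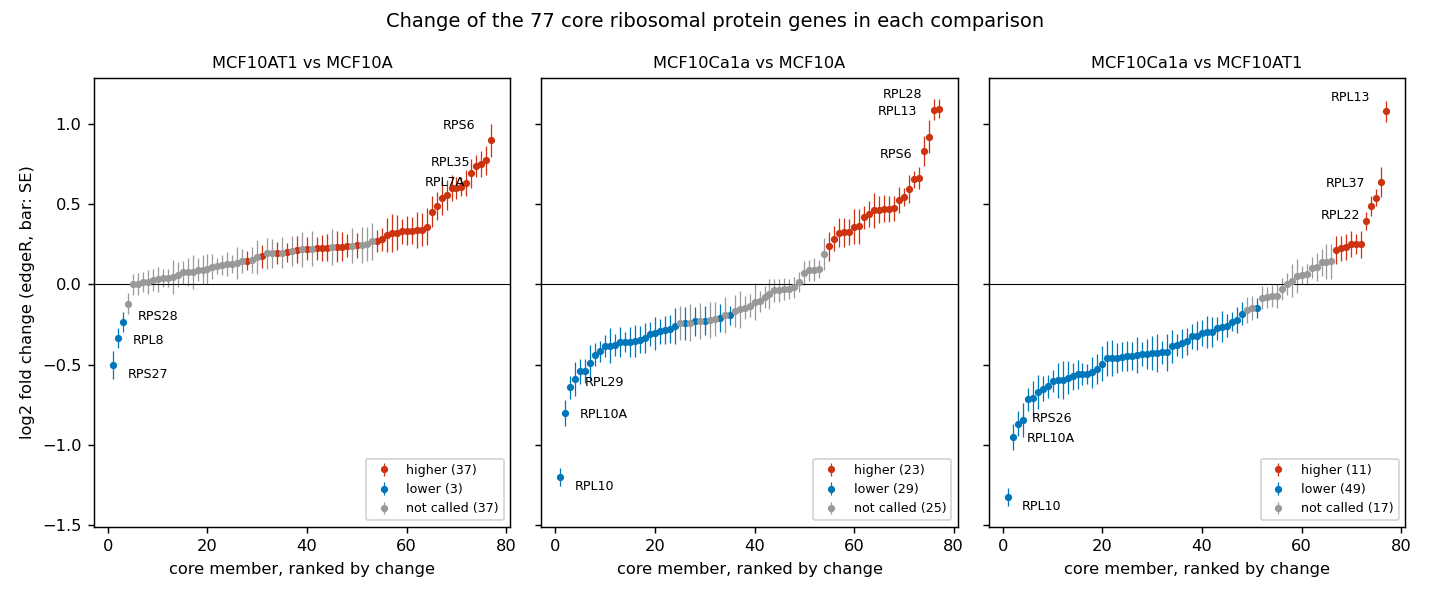
Log2 change of each of the 77 core genes in the 3 comparisons, ranked within each panel, with SE bars and colours for the call at an adjusted p of 0.05. Most changes lie within 0.5 of zero (65, 62 and 55 genes), with RPL10 lowest in both comparisons of MCF10Ca1a.

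These counts move with single libraries and with the scale. Without MCF10A replicate 1, 31 core genes were higher and 4 lower in MCF10AT1, and 22 were higher and 44 lower in MCF10Ca1a, both against MCF10A. Without MCF10A replicate 3, 61 were higher in MCF10AT1, and without MCF10AT1 replicate 3, 22 were. Of all genes, 60.4% in MCF10AT1 and 81% in MCF10Ca1a were called without MCF10A replicate 1. In MCF10AT1, 60.6% of all genes were called without MCF10A replicate 3 and 55.8% without MCF10AT1 replicate 3. On log2(TPM + 1) with limma, the counts were 23 higher and 6 lower, 33 higher and 20 lower, and 26 higher and 30 lower in the order of the 3 comparisons. On that scale the median of all genes moved to -0.12, 0.07 and 0.19, and 60.6%, 80.4% and 80.3% of all genes were called. With library sizes taken from the core genes themselves the counts were 13 higher and 18 lower, 23 and 40, and 22 and 36. Of all genes, 57.6%, 74.7% and 72% were called. This scaling centres the core genes by construction, so their balance there is no result. Relative to the median of all genes, the core median was 0.22, -0.09 and -0.28 with TMM and 0.20, -0.09 and -0.25 with TPM. Without a filter it was 0.23, -0.21 and -0.41 with TMM and 0.08, -0.03 and -0.08 with TPM. Without MCF10A replicate 1 it was 0.11 in MCF10AT1 and -0.19 in MCF10Ca1a against MCF10A, and without MCF10A replicate 3 it was 0.31 and -0.02.

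By pattern over the 3 comparisons, 5 core genes were called higher at each (RPL23, RPL28, RPL35A, RPL38 and RPS2; for RPL35A the call between MCF10Ca1a and MCF10AT1 was lost under 6 of 22 alternatives), and 18 were higher than in MCF10A in both derived lines. A group of 11 was higher in MCF10AT1 and lower in MCF10Ca1a than in MCF10A (among them RPL17, RPL32, RPL36, RPL36A, RPS24, RPS26 and RPS4X, whose call in MCF10AT1 was lost under most alternatives). The largest group, with 16 genes, was lower in MCF10Ca1a than in both other lines and not called between those, among them RPL10, RPL10A, RPL29, RPL34 and RPS23. The 8 genes called in no comparison were RPL4, RPL11, RPL23A, RPL30, RPSA and the 3 proteins of the ribosomal stalk, RPLP0, RPLP1 and RPLP2. In MCF10Ca1a against MCF10A and against MCF10AT1, RPL4 gained a call under 5 and 5 of 22 alternatives, and RPSA under 4 and 6. Of all genes, 61.6%, 80.9% and 78.4% were called in the 3 comparisons. How many of all genes had each pattern was not counted, so no group is read as particular to the core genes.

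In the large subunit, 20 of 46 genes were higher and 1 lower in MCF10AT1 than in MCF10A, 15 were higher and 18 lower in MCF10Ca1a than in MCF10A, and 8 were higher and 26 lower in MCF10Ca1a than in MCF10AT1. Of all genes, 61.6%, 80.9% and 78.4% were called in these comparisons. RPL10 (chrX:154389955-154409168, plus strand), a late-joining protein near the peptidyl transferase centre, fell most. It had 958, 1013 and 1060 CPM in MCF10A and 1102, 1120 and 1085 in MCF10AT1, compared with 438, 429 and 452 in MCF10Ca1a. Every library of MCF10Ca1a was under every library of the other lines, 2.3-fold below MCF10A (log2 change -1.20, SE 0.0577, edgeR adjusted p 1.57e-10) and 2.51-fold below MCF10AT1 (log2 change -1.32, SE 0.0578, edgeR adjusted p 8.031e-11). Its paralog RPL10L did not appear in its place, at 0 or 1 count per library of MCF10Ca1a.

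RPL10A (chr6:35468408-35470785, plus strand), a protein of the L1 stalk, followed at 799, 937 and 1022 CPM in MCF10A and 980, 1000 and 1082 in MCF10AT1, as against 522, 520 and 541 in MCF10Ca1a. MCF10A and MCF10AT1 overlapped, and MCF10Ca1a was below both. Its log2 change was -0.80 (SE 0.0808) against MCF10A and -0.95 (SE 0.081) against MCF10AT1, with edgeR adjusted p-values of 4.967e-07 and 9.047e-08. Only 31.2% of its 31-base stretches were unique to it among the annotated transcripts, so its estimate also rests on how reads were divided with RPL10AP6 and other copies. RPL29 (log2 change -0.64) and RPL34 (-0.59) completed the largest falls of the large subunit against MCF10A, and RPL17 (-0.84) and RPL29 (-0.72) those against MCF10AT1. RPL17 shares exons with the readthrough gene RPL17-C18orf32, which stood at 54.7 ± 6.9 TPM in MCF10A, 69.1 ± 4.67 in MCF10AT1 and 84.3 ± 1.94 in MCF10Ca1a (SD, n = 3 each).

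RPL13 (chr16:89560657-89566828, plus strand) and RPL28 (chr19:55385345-55403250, plus strand) rose most in MCF10Ca1a. RPL13 had 937, 954 and 1032 CPM in MCF10A and 943, 1022 and 981 in MCF10AT1, while MCF10Ca1a had 2094, 1969 and 2144. MCF10A and MCF10AT1 overlapped, and MCF10Ca1a was 2.12-fold above MCF10A (log2 change 1.09, SE 0.0633, edgeR adjusted p 1.245e-09). RPL28 rose at both steps, from 425, 448 and 469 CPM in MCF10A to 689, 661 and 694 in MCF10AT1 and 963, 907 and 994 in MCF10Ca1a, with no overlap. Its log2 change was 0.61 (SE 0.0599, edgeR adjusted p 1.054e-06) in MCF10AT1 and 1.09 (SE 0.0604, edgeR adjusted p 7.122e-10) in MCF10Ca1a, both against MCF10A. RPL37 (log2 change 0.83), RPL18 (0.66) and RPL22 followed in MCF10Ca1a against MCF10A. In MCF10AT1 against MCF10A the largest rises of the large subunit were RPL35 (0.77), RPL7A (0.75), RPL18 (0.73) and RPL13A (0.63), all with edgeR adjusted p-values of 1.621e-05 or below. The only fall was RPL8 (-0.34, SE 0.0633, edgeR adjusted p 0.0004084), at 1728, 1860 and 1989 CPM in MCF10A and 1477, 1500 and 1443 in MCF10AT1.

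RPL5 and RPL11, which travel with 5S rRNA as one particle and hold MDM2 in check when free, were called differently. RPL5 had 1199, 1436 and 1608 CPM in MCF10A and 1918, 1979 and 2044 in MCF10AT1, compared with 2123, 2128 and 2159 in MCF10Ca1a. It was above all libraries of MCF10A in both derived lines (log2 change 0.49, SE 0.0868, and 0.60, SE 0.0869, edgeR adjusted p 0.00026 and 2.198e-05). RPL11 stood at 922, 1024 and 1091 CPM in MCF10A and 1059, 1042 and 991 in MCF10AT1, as against 1071, 1083 and 1071 in MCF10Ca1a. Its libraries overlapped with MCF10A in both derived lines, and its log2 changes of 0.03 and 0.09 were not called by edgeR (adjusted p 0.7514 and 0.2365). On log2(TPM + 1) with limma RPL11 was called higher in MCF10Ca1a than in MCF10A, by 0.23. The difference between both genes was not tested, and only 48.8% of the 31-base stretches of RPL5 were unique to it.

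Of the stalk, which recruits the translation factors, RPLP0 had 2310, 2619 and 2829 CPM in MCF10A and 2857, 2897 and 2819 in MCF10AT1, while MCF10Ca1a had 2667, 2661 and 2820. RPLP1 and RPLP2 ranged from 918 to 1125 and from 495 to 587 CPM over all 9 libraries. None of the 3 was called in any comparison by edgeR, with log2 changes from -0.12 to 0.14. With limma on log2(TPM + 1), all 3 were higher in MCF10Ca1a than in MCF10A, RPLP0 by 0.20, RPLP1 by 0.19 and RPLP2 by 0.11. RPLP1 moved most on that scale, by -0.26 in MCF10AT1 against MCF10A and 0.45 in MCF10Ca1a against MCF10AT1 (limma adjusted p 0.000714 and 4.53e-06), and its call in these 2 comparisons was gained under 5 and 8 of 22 alternatives. The stalk result thus depends on the scale. RPL4, the core gene with the highest mean TPM, ran from 2535 to 2800 CPM. RPL3, at the peptidyl transferase centre, fell by 0.19 on the log2 scale in MCF10Ca1a against MCF10A (SE 0.0573, edgeR adjusted p 0.006731), a call that limma on log2(TPM + 1) did not make (-0.04). RPL39 fell by 0.38 there (SE 0.106, edgeR adjusted p 0.00454).

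In the small subunit, 17 of 31 genes were higher and 2 lower in MCF10AT1 than in MCF10A, 8 were higher and 11 lower in MCF10Ca1a than in MCF10A, and 3 were higher and 23 lower in MCF10Ca1a than in MCF10AT1, beside 61.6%, 80.9% and 78.4% of all genes called. RPS6 (chr9:19375715-19380254, minus strand), the protein phosphorylated by S6 kinase, rose most. Its CPM values were 1698, 2117 and 2453 in MCF10A and 3716, 3932 and 4010 in MCF10AT1, compared with 3868, 3943 and 4026 in MCF10Ca1a. Both derived lines were above every library of MCF10A and overlapped with each other. RPS6 was 1.86-fold higher in MCF10AT1 (log2 change 0.90, SE 0.103, edgeR adjusted p 4.677e-06) and 1.89-fold higher in MCF10Ca1a (log2 change 0.92, SE 0.103, edgeR adjusted p 1.531e-06) than in MCF10A. RPS16 rose by 0.69 (SE 0.0908, edgeR adjusted p 1.704e-05) in MCF10AT1 against MCF10A, and RPS2 by 0.54 (SE 0.0565, edgeR adjusted p 6.928e-07) in MCF10Ca1a against MCF10A.

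RPS27 (chr1:153990755-153992155, plus strand) showed the largest fall in MCF10AT1. Its CPM values were 821, 983 and 1101 in MCF10A and 654, 678 and 717 in MCF10AT1, as against 794, 783 and 802 in MCF10Ca1a. The lines did not overlap, and MCF10AT1, where RPS27L was highest, was lowest. The log2 change of RPS27 was -0.50 (SE 0.0872, edgeR adjusted p 0.0001984) in MCF10AT1 and -0.29 (SE 0.0871, edgeR adjusted p 0.007714) in MCF10Ca1a, both against MCF10A. The second call was lost with limma on log2(TPM + 1) without a filter (-0.18, adjusted p 0.09). Of its 31-base stretches 29.18% were unique, the lowest share among the core genes, whose median was 79.7%. The share was under 50% in 8 core genes, which also include RPL12, RPS2, RPS3A, RPS18 and RPSA. RPS28 fell by 0.23 in MCF10AT1 (SE 0.0604, edgeR adjusted p 0.004124).

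RPS26 (chr12:56041351-56044697, plus strand), which lies at the mRNA exit channel, had 302, 346 and 386 CPM in MCF10A and 426, 422 and 450 in MCF10AT1, while MCF10Ca1a had 234, 229 and 247. No lines overlapped. It rose by 0.33 in MCF10AT1 (SE 0.0769, edgeR adjusted p 0.002115) and its log2 change was -0.54 in MCF10Ca1a (SE 0.0775, edgeR adjusted p 1.847e-05), both against MCF10A. Relative to the summed count of the core genes, the rise in MCF10AT1 was 0.07 and not called. RPS23, in the decoding centre, was also lower in MCF10Ca1a than in MCF10A (log2 change -0.54, SE 0.0779, edgeR adjusted p 1.934e-05), and RPS29 was lower than in MCF10AT1 by edgeR (log2 change -0.71, SE 0.109, adjusted p 3.829e-05).

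RPS19, the gene most often mutated in Diamond-Blackfan anaemia, stood at 612, 681 and 741 CPM in MCF10A and 996, 1020 and 1065 in MCF10AT1, compared with 897, 883 and 934 in MCF10Ca1a. It was higher than in MCF10A in both derived lines (log2 change 0.60, SE 0.0698, and 0.42, SE 0.0697, edgeR adjusted p 5.353e-06 and 8.14e-05). RPS4X, the X-linked form, had a log2 change of -0.39 in MCF10Ca1a against MCF10A (SE 0.0701, edgeR adjusted p 0.0001691). Its 0.17 in MCF10AT1 (edgeR adjusted p 0.04511) lost its call under 15 of 22 alternatives, among them the fit without MCF10A replicate 1 (0.10), and changed sign under 1 more. RPSA, the laminin receptor precursor, was not called by edgeR in MCF10AT1 (0.01, adjusted p 0.8846) or MCF10Ca1a (-0.13, adjusted p 0.11) against MCF10A.

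Core genes were also set beside their neighbours on the chromosome. This was read after the values of the members had been seen. For each core gene the median log2 change was taken of the other tested genes within 5 Mb (14 to 259 genes, no members). Over the 77 core genes Pearson's r between a gene and its neighbours was 0.79 in MCF10AT1 against MCF10A, 0.70 in MCF10Ca1a against MCF10A and 0.59 in MCF10Ca1a against MCF10AT1 (Spearman's rho 0.56, 0.65 and 0.57). Without the 2 genes farthest from the median of the neighbour values, r was 0.76, 0.66 and 0.52. Points share libraries, and members close together share neighbours, so these are descriptions. A gene and its neighbour median had the same sign for 34, 63 and 52 of the 77 core genes, so that in MCF10AT1 against MCF10A most did not. Subtracting the neighbour median narrowed the SD of the core changes from 0.24 to 0.15, from 0.43 to 0.33 and from 0.39 to 0.34.

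On chromosome 9, all 4 core genes (RPS6, RPL35, RPL7A and RPL12) were higher than in MCF10A in both derived lines, with a median of 0.76 in MCF10AT1 and 0.50 in MCF10Ca1a, and the other 684 tested genes of the chromosome had medians of 0.48 and 0.33. Around RPS6 the neighbour median was 0.62 and 0.71. On chromosome 19, the 8 core genes beyond 38 Mb (among them RPS16, RPS19, RPL18, RPL13A and RPL28) were all higher in MCF10AT1 than in MCF10A (median log2 change 0.60), where their neighbour medians were 0.41 to 0.53. In MCF10Ca1a against MCF10A, 7 of the 8 were higher and RPS9 was lower (-0.36, neighbour median 0.48). In MCF10Ca1a against MCF10AT1 they went the other way from their neighbours, with 5 lower and 1 higher (median -0.24) beside neighbour medians of 0.14 to 0.29. Of the 4 core genes below 18 Mb, 2 were higher and 1 lower in MCF10AT1 than in MCF10A (median 0.13), among neighbours at -0.14 to -0.10. RPS27 and RPL8, which fell in MCF10AT1, lay among neighbours with medians of -0.61 and -0.56. RPL13 in MCF10Ca1a against MCF10A (1.09) had a neighbour median of 0.85.

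Some large changes stood away from their neighbours. RPL10 fell by 1.20 in MCF10Ca1a against MCF10A where its 77 neighbours had a median of -0.12, and RPL10A fell by 0.80 among neighbours at 0.11. The 4 core genes of the X chromosome (RPL10, RPS4X, RPL39 and RPL36A) were all lower in MCF10Ca1a than in either other line by edgeR, with medians of -0.41 and -0.60, and the other 567 genes of the X had medians of -0.21 and -0.17. Against MCF10A, RPS4X (-0.39) and RPL36A (-0.44) changed by less than their neighbours (-0.52 and -0.55), and RPL39 (-0.38) by more (-0.20). For the paralogs, RPL39L rose by 4.24 in MCF10AT1 among neighbours at -0.07, and RPS27L had a log2 change of -2.62 in MCF10Ca1a against MCF10A among neighbours at -0.23.

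**Figure D4:**
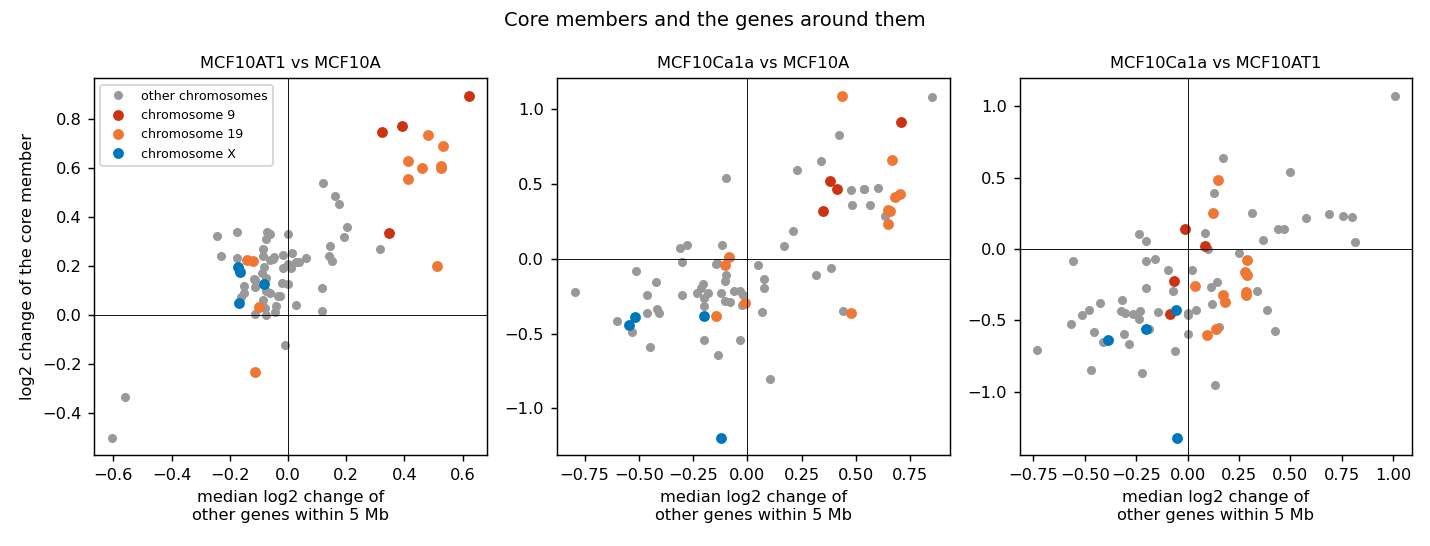
Log2 change of each of the 77 core genes (vertical) against the median log2 change of the other genes within 5 Mb (horizontal) in the 3 comparisons, with members on chromosomes 9, 19 and X coloured. Members rise with their neighbours in each panel (r 0.79, 0.70 and 0.59), and RPL10 is the X-linked point at the bottom of the middle and right panels.

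The start sites of some of these genes are shown for the TOP tract that most members share, as 60 bases before to 10 bases from the listed start in RefSeq (GRCh38.p14), with the C and the C or T bases after it in capitals.
RPS6, chr9:19380227-19380296 (minus strand): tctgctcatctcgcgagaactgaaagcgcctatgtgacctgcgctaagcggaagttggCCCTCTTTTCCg
RPL28, chr19:55385872-55385941 (plus strand): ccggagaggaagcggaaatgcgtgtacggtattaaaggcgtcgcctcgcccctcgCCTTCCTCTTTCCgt
RPL18, chr19:48619169-48619238 (minus strand): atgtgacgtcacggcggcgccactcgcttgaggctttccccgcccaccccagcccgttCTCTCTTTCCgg
RPL39, chrX:119791621-119791690 (minus strand): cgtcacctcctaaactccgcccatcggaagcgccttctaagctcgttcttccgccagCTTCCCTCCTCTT
RPS27, chr1:153990702-153990771 (plus strand): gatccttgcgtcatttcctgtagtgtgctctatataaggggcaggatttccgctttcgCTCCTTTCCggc
RPS27L, chr15:63157468-63157537 (minus strand): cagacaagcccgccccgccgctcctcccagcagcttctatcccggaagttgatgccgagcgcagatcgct
RPS26, chr12:56041858-56041927 (plus strand): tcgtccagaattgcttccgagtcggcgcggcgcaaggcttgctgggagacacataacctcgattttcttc
The RefSeq table matched 64 of the 81 members. In 53 of these (82.8%), a C followed by at least 4 bases that are each C or T began within 5 bases of a listed start on the transcribed strand, as against 6886 of 27305 genes in the table (25.2%). Members that rose (RPS6, RPL28, RPL18) and that fell (RPL39 and RPS27 in MCF10Ca1a) both had the run. It was not found at the listed starts of 11 members, among them RPS26, RPS4X, RPS29, RPL17 and the paralogs RPS27L and RPL10L. In the windows of 250 bases before to 50 after the start, searched on both strands, CCGGAAG was in 35.9% of the members and 12.2% of all genes, AAGATGGC in 9.4% and 3.5%, GGGCGG in 59.4% and 48.3%, and TATAAA in 9.4% and 14.0%. A match is a string of letters and not a site in use.

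Which transcripts a gene was read from also differed between the lines. A transcript's share is its estimated count as a percentage of the count of its gene, tested with limma on the log2 ratio of the transcript to the rest of its gene. Of 748 transcripts of 79 members, 7 (0.936%) were called in MCF10AT1 against MCF10A, beside 1.95% of all 66050 transcripts tested. In MCF10Ca1a 159 of 748 (21.3%) were called against MCF10A and 138 (18.4%) against MCF10AT1, beside 20.8% and 15.7% of all. With 1 library left out at a time, these 2 counts ran from 104 to 141 and from 83 to 123. The 7 calls in MCF10AT1 became 21 with a minimum of 50 counts and 1 with the replicate number as a block. Of the member transcripts, 0 in MCF10AT1 and 14 in MCF10Ca1a against MCF10A were called and moved by over 5 percentage points. The shares of all transcripts above this limit, and in the alternative fits, were not counted. By transcript type the counts of the core genes hardly moved, with 89.6%, 90.6% and 89.6% on protein-coding models and 5.73%, 5.17% and 5.83% on retained introns in MCF10A, MCF10AT1 and MCF10Ca1a.

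RPS24 is a small-subunit protein whose last exons are spliced in alternative ways. Among called member transcripts, RPS24-214 and RPS24-202 moved most in percentage points in MCF10Ca1a against MCF10A. In MCF10Ca1a against MCF10AT1, a transcript of RPL36 moved by more points than RPS24-214. On the tested log2 ratio, other transcripts changed by more, among them one of RPL36A. RPS24 was picked after its values were seen. A 22-base exon at chr10:78040204-78040225 (plus strand) is in 5 of its 18 transcripts. In the sequence below, the 20 coding bases before it are in lower case and the exon in capitals, which open with the stop codon of RPS24-202.
RPS24 small exon: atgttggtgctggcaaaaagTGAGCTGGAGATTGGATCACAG
Transcripts with this exon held 25.6%, 26% and 27.1% of the RPS24 counts in MCF10A and 25.8%, 25.5% and 25.2% in MCF10AT1, as against 58.9%, 58.7% and 57.5% in MCF10Ca1a. MCF10A and MCF10AT1 overlapped, and each library of MCF10Ca1a had more than either. The main transcript with the exon, RPS24-202, rose from 25.8 ± 0.798% in MCF10A to 55.5 ± 0.709% in MCF10Ca1a (SD, n = 3 each; log2 ratio change 1.84, SE 0.134, limma adjusted p 0.000173). RPS24-214, which skips it and has 399 coding bases before the stop where RPS24-202 has 390, fell from 64.8 ± 0.839% to 34.1 ± 0.85% (log2 ratio change -1.82, SE 0.135, limma adjusted p 0.000184). RPS24-201, with a further exon of 3 bases, rose from 0.374% in MCF10A to 0.904% in MCF10AT1 and 2.83% in MCF10Ca1a (limma adjusted p 0.00995 and 3.28e-05 against MCF10A).

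RPL36, of the large subunit, differed in the estimated shares of transcripts with different starts. It too was picked after its values were seen. Of 8 transcripts, 3 start more than 1000 bases upstream of the main one, and RPL36-203 starts 9014 bases upstream. These 3 held 17.9%, 18.4% and 17.5% of the gene's counts in MCF10A and 17.4%, 17.6% and 17% in MCF10AT1, while MCF10Ca1a had 51.8%, 49.9% and 52.2%. Only MCF10Ca1a stood apart, while the gene itself fell there (417, 410 and 433 CPM, against 489, 552 and 599 in MCF10A; log2 change -0.38, SE 0.0698, edgeR adjusted p 0.0001859). Of the 31-base stretches of RPL36, 82.12% were unique to it, and it shared most with HSD11B1L; the part of shared reads in these shares was not tested.

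**Figure D5:**
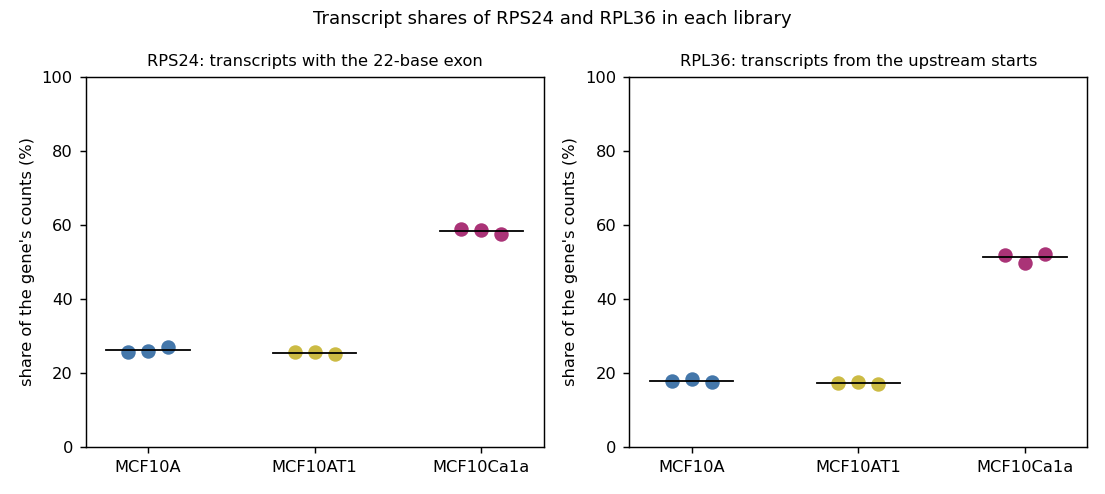
Share of the counts of RPS24 on transcripts with the 22-base exon (left) and of RPL36 on transcripts from the upstream starts (right), as a percentage, in each library with black lines at the line means. MCF10Ca1a lies above 45% in both panels, and the other 2 lines lie together below 30%.

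By the smallest p, RPL36A-209 led both comparisons of MCF10Ca1a. It is listed at 0 in all 6 other libraries and at 18.2%, 15.2% and 24.4% of RPL36A in MCF10Ca1a (limma adjusted p 3.03e-07 against MCF10A). RPL36A shares exons with the readthrough gene RPL36A-HNRNPH2, which had 43.5 ± 5.47 TPM in MCF10A and 24.1 ± 5.09 TPM in MCF10Ca1a. RPL37-206 was also listed at 0 outside MCF10Ca1a and at 0.154 ± 0.0352% there. RPS9-208, a nonsense-mediated decay model, was listed at 0 in MCF10A, at 0.11 ± 0.0547% in MCF10AT1 and at 1.62 ± 0.219% in MCF10Ca1a. RPL37A-203 rose from 0.027% to 0.129% in MCF10AT1 (limma adjusted p 0.00873). RPL10-217, a retained-intron model, made up 1.66 ± 0.111% of RPL10 in MCF10A, 0.721 ± 0.0712% in MCF10AT1 and 5.67 ± 0.19% in MCF10Ca1a, where the gene was lowest (limma adjusted p 0.000315 against MCF10A). All SDs are over 3 libraries.

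The genes that make and regulate ribosomes were read beside their proteins. The shares of all genes to set beside the counts are 29.8% higher and 31.8% lower in MCF10AT1 against MCF10A, and 39% and 41.9% in MCF10Ca1a against MCF10A. Of 49 assembly factors, 9 were higher and 20 lower in MCF10AT1 than in MCF10A by edgeR, and 10 were higher and 32 lower in MCF10Ca1a, with median log2 changes of -0.08 and -0.34 where the core genes had 0.22 and -0.13. The assembly endonuclease NOB1 rose most in MCF10Ca1a (1.01, edgeR adjusted p 6.705e-10) and MRTO4, a large-subunit factor, fell most (-1.47, edgeR adjusted p 3.463e-11). Of 15 genes of RNA polymerase I, 7 were higher and 6 lower in MCF10Ca1a than in MCF10A, from POLR1F (-1.02) to POLR1E (0.68). Of 8 chaperones that each carry a ribosomal protein, 2 were higher and 4 lower, from TSR2, the carrier of RPS26 (-1.01), to PDCD2L (0.90).

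Of 20 translation factors and other TOP mRNAs, 4 were higher and 5 lower in MCF10AT1, and 8 were higher and 9 lower in MCF10Ca1a, both against MCF10A by edgeR, beside 61.6% and 80.9% of all genes called. The elongation factor EEF2 rose most in MCF10Ca1a (0.95, edgeR adjusted p 6.718e-08) and the host RNA SNHG1 fell most (-0.86, edgeR adjusted p 5.108e-06). Of 13 regulators of TOP mRNAs and mTOR signalling, 6 were higher and 3 lower in MCF10Ca1a. MTOR itself rose (1.13, SE 0.0633, edgeR adjusted p 8.196e-10) and the translational repressor EIF4EBP2 fell most (-1.77, SE 0.0493, edgeR adjusted p 6.366e-13).

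The proteins of the mitochondrial ribosome, encoded by other genes, were read beside them. Of 78 genes, 53 were higher and 6 lower in MCF10AT1 than in MCF10A, 15 were higher and 47 lower in MCF10Ca1a than in MCF10A, and 10 were higher and 57 lower in MCF10Ca1a than in MCF10AT1. Of all genes, 29.8% were higher and 31.8% lower, 39% and 41.9%, and 38% and 40.3%, in this order. Their median log2 changes were 0.25, -0.25 and -0.55, each of the same sign as the 0.22, -0.13 and -0.32 of the core genes. In MCF10Ca1a against MCF10A they ran from MRPL54 (-2.29) to MRPS30 (0.996), a wider range than the -1.20 to 1.09 of the core genes. Of 1394 pseudogenes named after members, 153 passed the filter. They summed to 2144 ± 125 TPM in MCF10A, 2236 ± 88.8 in MCF10AT1 and 2768 ± 49.1 in MCF10Ca1a (SD, n = 3 each), beside 209800 ± 16200, 226300 ± 6060 and 229500 ± 1640 TPM of the core genes, and adding their counts to the members left the calls at 38 higher and 3 lower, 23 and 29, and 11 and 49.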

How the data were processed

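Gene expression was read in 9 libraries of 3 lines. Salmon and the build hg38 are named in the submitters' processing notes, with no version; the annotation is not given in the sources used here. The deposited tables hold estimated counts and TPM per gene and per transcript; the authors made them, and the estimated counts were rounded. Low genes were dropped with filterByExpr (grouped by line, counts of at least 10 and a total of at least 15), and the others were tested with edgeR 4.0.16's quasi-likelihood test (R 4.3.3) on TMM-scaled counts, with all 9 libraries in 1 fit and Benjamini-Hochberg adjustment over 17910 genes at 0.05. CPM use TMM-scaled totals. Transcript shares were tested with limma 3.58.1 on log2 ratios (pseudocount 1, mean of at least 10 counts), adjusted over 66050 transcripts. The edgeR and limma tests were tested on simulated data.

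Positions and coding sequences came from GENCODE 29 (GRCh38), matched to 58227 genes (92.9%), and start sites from RefSeq (GRCh38.p14). Of 831 member transcripts in the table, 794 had a GENCODE 29 name.

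Members, lists and tests were chosen with earlier results of these data known. The named genes were the paralogs ending in L with their parents, RPS4X, genes with known roles, the highest and lowest core gene, the 6 largest rises and falls per comparison among called genes without overlap, the strongest riser and faller of each list in MCF10Ca1a, and the 3 transcripts with the smallest p per comparison. Alternatives were DESeq2 1.42.0 (size factors and Wald test), no filter, the deposited length-scaled and scaled counts, a replicate block, only 2 lines, thinning, added pseudogene counts, library sizes from the core genes, limma on log2(TPM + 1 or 0.1), and each library left out. Some items are not reported here.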

Additional observations from a re-analysis of the deposited data

How the results depend on the processing

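Values under the alternatives were compared for named genes and transcripts and for the neighbour correlations. Of these values, 1692 counted as unchanged, 67 gained a call, 46 lost one and 25 changed sign. For genes, a change of sign was counted only where the main or the alternative value was called. The 1692 thus include sign changes with neither value called. The cause of the changes was not tested. With library sizes from the core genes, 13 core genes were higher and 18 lower in MCF10AT1 against MCF10A, and 22 were higher in MCF10Ca1a against MCF10AT1; this scaling shifts every gene alike and centres the core genes by construction. With limma on log2(TPM + 1), log2(TPM + 0.1) and log2(TPM + 1) without a filter, MCF10AT1 against MCF10A gave 23, 23 and 17 higher and 6 lower in each, and MCF10Ca1a against MCF10AT1 gave 26 higher in each and 30, 29 and 23 lower; MCF10Ca1a against MCF10A gave 18 lower without the filter. Without a filter on counts, 7 were higher in MCF10Ca1a against MCF10AT1. As a share of counts, the summed core level was 1.167 times that of MCF10A in MCF10AT1 (1.079 in TPM) and 0.895 times that of MCF10AT1 in MCF10Ca1a (1.014 in TPM). Transcript calls in MCF10AT1 rose from 7 to 21 with a minimum of 50 counts.

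With library sizes from the core genes, the log2 change in MCF10AT1 against MCF10A was -0.23 for RPL3, -0.20 for RPL39, -0.0846 for RPS4X, -0.23 for RPL11, -0.24 for RPSA and -0.23 for RPL4, and in MCF10Ca1a against MCF10AT1 it was 0.0248 for RPS19 and 0.18 for RPLP2. In all 3 TPM fits, RPL3 had 0.0631 in MCF10Ca1a against MCF10AT1 and was not called, and MCF10Ca1a was higher than MCF10AT1 by 0.15 for RPS19, 0.18 for RPLP0 and 0.25 for RPLP2, and higher than MCF10A by 0.19 for RPLP1; RPLP2 was higher than MCF10A by 0.11 with the filter.

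Leaving out 1 library at a time gave 22 to 61 higher and 3 to 4 lower core genes in MCF10AT1 against MCF10A (61 without MCF10A replicate 3, 22 without MCF10AT1 replicate 3), 22 to 25 higher and 23 to 44 lower in MCF10Ca1a against MCF10A (44 without MCF10A replicate 1), and 6 to 12 higher and 45 to 51 lower in MCF10Ca1a against MCF10AT1 (6 without MCF10AT1 replicate 1 or MCF10Ca1a replicate 3, 7 without MCF10AT1 replicate 2). Of all genes, 54.6% to 60.6%, 77% to 81% and 74.2% to 79.8% were called in these fits. Transcript calls ran from 6 to 8, 104 to 141 and 83 to 123, with 104 without MCF10A replicate 2 and 88, 84 and 83 without MCF10AT1 replicates 1, 2 and 3, and the ratios of summed levels from 1.037 to 1.12, 1.052 to 1.136 and 1.002 to 1.029.

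Same-numbered libraries did not pair: over 9 pairs their deviations correlated from -0.136 to 0.159, with 1 over 0.1, and 2 of 9 libraries correlated best with their own number. With the replicate number as a block, core genes called were 48 higher and 3 lower, 24 and 34, and 11 and 49, and transcript calls 1, 105 and 80. Of all genes, 60.6%, 80.4% and 77.7% were called with the block. In MCF10AT1 against MCF10A the block lost the calls of RPL37A-203 (limma adjusted p 0.071) and RPS24-201 (limma adjusted p 0.0832).

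Depth was lower in MCF10Ca1a. The windows of 2 and 10 Mb and the fit without MCF10A replicate 1, chosen after seeing the data, gave neighbour correlations of 0.748 to 0.816, 0.662 to 0.712 and 0.513 to 0.583.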
